A study of Arabidopsis thaliana with 12 samples.

Results

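The nuclear genes of the photosystems and their light-harvesting antenna were followed in chromatin immunoprecipitation of RNA polymerase II (RNAPII) from Arabidopsis thaliana seedlings. The 43 genes were taken by their locus identifiers out of 33323 nuclear genes counted: 20 antenna genes (6 LHCA genes of photosystem I and 14 LHCB genes of photosystem II), 12 photosystem I (PSA) genes and 11 photosystem II (PSB) genes. All 43 had a count in the whole gene, transcription start site (TSS) and gene body windows. The gene table lists LHCB1.1 (AT1G29920), LHCB1.2 (AT1G29910), LHCB1.3 (AT1G29930), LHCB1.4 (AT2G34430) and LHCB1.5 (AT2G34420) as CAB2, CAB3, CAB1, LHB1B1 and LHB1B2, PSBS (AT1G44575) as NPQ4 and PSBQ-1 (AT4G21280) as PSBQA.

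The 12 libraries form 4 groups of 3. In the S2P induced group, polymerase phosphorylated at serine 2 of its C-terminal repeats, the form that elongates through gene bodies, was precipitated from plants exposed for 24 h to 2 mM β-estradiol, with GFP-TFIIS named as the induced protein. The S2P mock group had the same antibody and ethanol instead. In the S5P induced group the antibody was against the serine 5 form, which is richest near the start of genes, and the labels name GFP-TFIISmut, a mutated form; the S5P mock group had ethanol. Every group had the tfIIs-1 (SALK_056755) background in the Columbia ecotype, a T-DNA insertion in the gene of the elongation factor TFIIS (AT2G38560), and was harvested as seedlings 10 days after sowing, grown with 16 h of light. Neither antibody and induced protein, nor estradiol and induced protein, can be told apart, and neither wild-type plants nor input chromatin were used here. The plants are bulk material, so fewer cells of a type and less polymerase per cell cannot be told apart either.

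Light-harvesting proteins bind chlorophyll and pass excitation energy to the reaction centres. LHCB1 and LHCB2 proteins, with LHCB3, form the trimers of the photosystem II antenna, LHCB4, LHCB5 and LHCB6 link those trimers to the core, and LHCA proteins form a belt at photosystem I. In plants the chlorophyll-binding core proteins are encoded in the plastid, whereas the antenna and the small peripheral subunits are nuclear, are transcribed by RNAPII, and are known as a set of genes that respond together to light, the clock and plastid signals.

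The libraries were shallow for single genes. Nuclear gene reads ranged from 115868 to 2537034 per library, and 1 library of each induced group and S2P mock 1 and 2 held under 250000. The 43 genes together took 147 to 4558 reads per library. In the library labelled S5P induced 2, where 18 of the 43 genes had no read, 3 reads correspond to 25.9 counts per 1000000 nuclear gene reads (CPM), the limit that a count of 0 allows there, for counting error only. Reads outside genes made up 16.1% to 38.6% of counted alignments and were highest in the library labelled S5P induced 2 and S2P induced 3 (33.4%). Reads that did not align made up 74.7% to 96.7% per library. Of the aligned reads, 18.5% to 56.1% were set aside for low mapping quality, most in S2P induced 3. TFIIS itself stood at 93.9, 125 and 61.8 CPM in S2P induced libraries, against 18.8, 67.7 and 57.9 CPM in S2P mock libraries, and at 156, 43.2 and 179 CPM in S5P induced libraries, against 58.9, 46.9 and 47.7 CPM in S5P mock libraries; neither difference passed edgeR's quasi-likelihood test (adjusted p = 0.573 and 0.580), and the S2P induced 3 value lay within the range of S2P mock libraries. The library labelled S5P induced 2 lay below all S5P mock libraries, on 5 reads (exact Poisson 95% interval 14.0 to 101 CPM, counting error only), so its TFIIS signal does not bear out its label. Results without these libraries are given with the induction medians. The 10 root markers summed to 112 to 240 CPM per library, within the 102 to 319 CPM of 12 genes silent in seedlings. Without LEC1, VGD1 and AP1 the other 9 silent genes summed to 58.9 to 187 CPM, below the root markers in every library. How far the root markers exceeded background thus depended on the silent genes taken, and they were not used to check the tissue.

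The share of polymerase signal on photosynthesis genes was lower on average in induced than in mock plants with both antibodies, but the mock libraries spread more widely than this difference. The 43 genes took 0.160% ± 0.0354 of nuclear gene reads in S2P induced libraries and 0.238% ± 0.153 in S2P mock libraries, and 0.175% ± 0.0425 in S5P induced libraries and 0.268% ± 0.173 in S5P mock libraries (SD, n = 3 each). Photosystem I genes took 0.0322%, 0.0471% and 0.0162% in S2P induced libraries, against 0.0982%, 0.0271% and 0.0487% in S2P mock libraries. They took 0.0466%, 0.0104% and 0.0508% in S5P induced libraries, against 0.0967%, 0.0287% and 0.0578% in S5P mock libraries. In both comparisons mock 1 stood alone at the top, the shallowest induced library stood at the bottom of its group, and the groups overlapped.

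Photosystem II genes followed the same order of libraries. Their share was 0.0377%, 0.0488% and 0.0181% in S2P induced libraries, against 0.0925%, 0.0333% and 0.0477% in S2P mock libraries. It was 0.0509%, 0.0147% and 0.0534% in S5P induced libraries, against 0.0928%, 0.0358% and 0.0548% in S5P mock libraries. Antenna genes differed in that the shallowest induced library was the middle one of its group with both antibodies: they took 0.116%, 0.0776% and 0.0851% in S2P induced libraries, against 0.221%, 0.0625% and 0.0832% in S2P mock libraries. With S5P they took 0.108%, 0.102% and 0.0893% in induced libraries, against 0.274%, 0.0717% and 0.0924% in mock libraries. LHCB1.1, LHCB1.2 and LHCB2.3 made this difference, and the other 17 antenna genes took 0.0498% ± 0.0240 in S2P induced and 0.0825% ± 0.0533 in S2P mock libraries, and 0.0612% ± 0.0343 in S5P induced and 0.113% ± 0.0825 in S5P mock libraries (SD, n = 3 each).

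**Figure D1:**
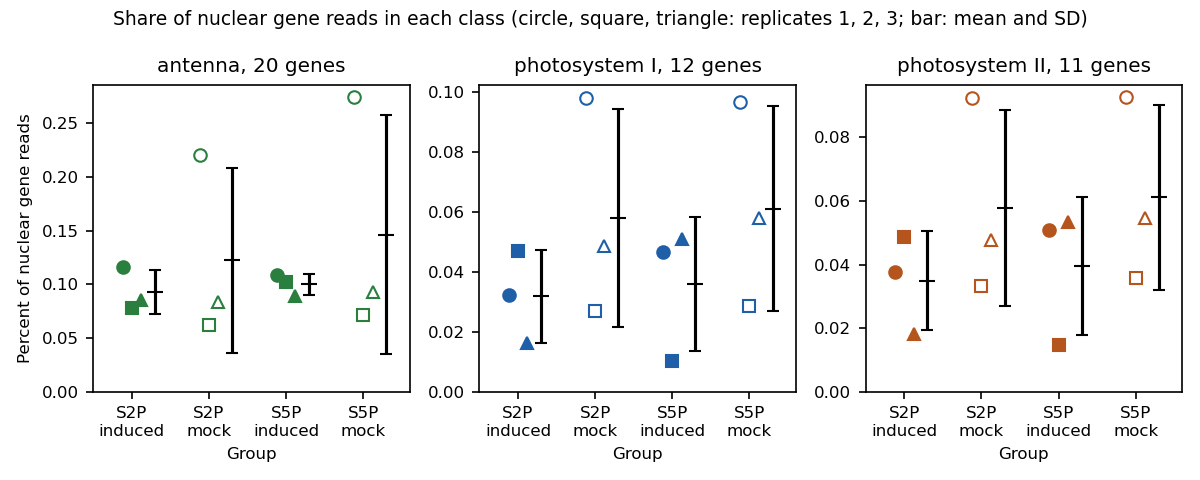
Percent of nuclear gene reads in antenna, photosystem I and photosystem II genes, with induced (filled) left of mock (open) for each antibody; each symbol is a library and the bars give the mean and SD of 3. Mock 1 (open circles) is the highest library in every panel, and the remaining mock libraries lie within or close to the range of the induced ones.

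Genes of seed, pollen and flower that are known to be silent in seedlings gave a measure of the background of each immunoprecipitation. The median of the 12 was 9.69, 8.65 and 9.50 CPM in S2P induced libraries, against 12.5, 20.8 and 15.0 CPM in S2P mock libraries. It was 11.5, 8.63 and 6.33 CPM in S5P induced libraries, against 11.9, 15.2 and 14.1 CPM in S5P mock libraries. Every induced library thus lay below every mock library of its antibody in these genes, a difference of the same direction as that of the photosystem and antenna genes, and its part in their change was not tested. In the shallow libraries these medians rested on few reads. There 1 read was 8.63 CPM in the library labelled S5P induced 2 and 4.75 CPM in S2P induced 3. It was 6.25 and 5.21 CPM in S2P mock 1 and 2, so single reads could change this order. The sum over the 12 genes had another order, highest in S2P induced 3 and the library labelled S5P induced 2 among the induced, where LEC1, VGD1 and AP1 held 51 of 66 and 29 of 37 reads.

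**Figure D2:**
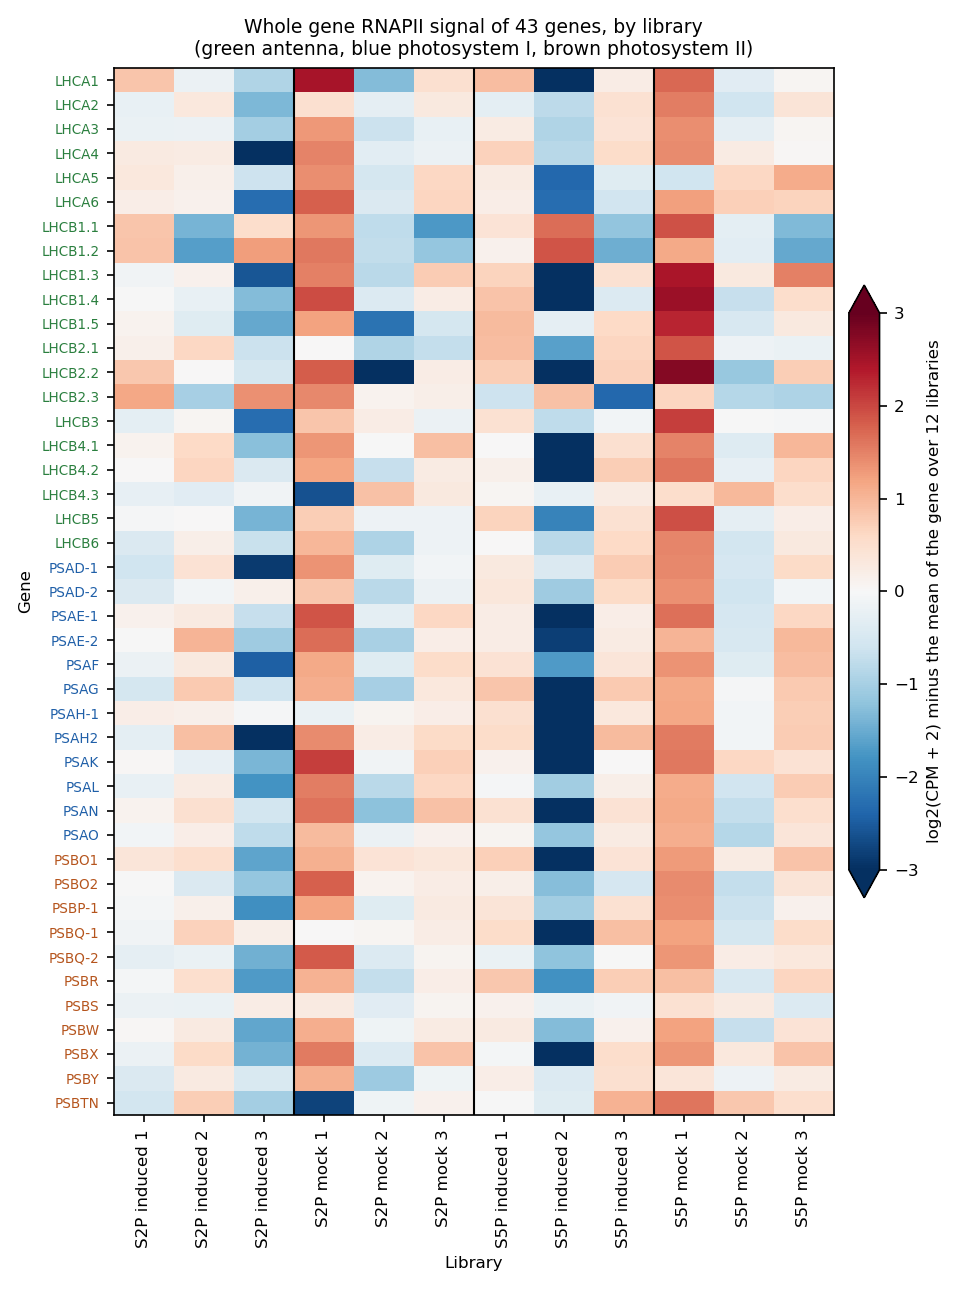
Heat map of log2(CPM + 2) of the 43 genes in 12 libraries, each row centred on the mean of its gene, with induced left of mock within each antibody. Mock 1 is red in nearly every row, S2P induced 3 and the library labelled S5P induced 2 are blue in most rows, and LHCB1.1, LHCB1.2 and LHCB2.3 break that order.

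A wide contrast lay within the mock plants. Mock 1 was the highest of the 3 mock libraries for 35 of 37 genes tested with S2P, where 34% of all genes had their highest mock value in it, and for 41 of 42 with S5P, where 32.6% did. The exceptions with S2P were PSAH-1 and PSBQ-1, lowest in mock 1 (2 of 37, against 39.2% of all genes). Mock 2 was the lowest for 30 of 37 genes with S2P (32.7% of all genes) and 31 of 42 with S5P (30.1%), and mock 3 for 5 of 37 with S2P (28.1%) and 11 of 42 with S5P (40.2%). The ratio of mock 1 to the mean of mock 2 and mock 3 had a median of 2.55 over the 37 genes with S2P, against 0.942 over all 18798 genes tested, and of 2.43 over the 42 genes with S5P, against 0.995 over all 21954. Of the genes in the highest 1 percent of that ratio (0.995% of genes with S2P and 0.998% with S5P), 13 of 187 were photosystem or antenna genes with S2P, which is 35.1% of the 37, and 22 of 219 with S5P, 52.4% of the 42.

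LHCB2.2 (AT2G05070), a trimer gene, had the highest ratio of all 21954 genes with S5P, at 7.01: it stood at 110 CPM in mock 1, 5.51 CPM in mock 2 and 25.8 CPM in mock 3. With S2P it stood at 56.3, 0 and 17.3 CPM, a ratio of 6.49. LHCA1 (AT3G54890), a subunit of the photosystem I belt, stood at 169, 10.4 and 40.6 CPM with S2P, a ratio of 6.62, and at 98.6, 22.1 and 29.7 CPM with S5P, a ratio of 3.81. In each of these genes mock 1 lay well above the other mock libraries with both antibodies.

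LHCB1.1, LHCB1.4 and LHCB1.5, which encode LHCB1 trimer proteins, had ratios of 6.49, 6.33 and 5.25 with S5P and of 5.83, 4.50 and 5.66 with S2P. Antenna genes had medians of 2.77 with S2P and 2.98 with S5P, photosystem I genes 2.55 and 2.22, and photosystem II genes 2.33 and 2.03. Neighbouring steps of the pathway lay lower: the medians were 1.71 and 1.51 for electron transport genes, 1.403 and 1.457 for chlorophyll synthesis genes, and 1.24 and 1.13 for genes of antenna insertion and regulation. LHCB4.3 (AT2G40100), a linker gene with 15.9, 22.1 and 15.7 CPM in S5P mock 1, 2 and 3, was the tested gene that did not have its highest S5P value in mock 1. Reads outside genes did not set mock 1 apart, at 25.5% with S2P and 23.8% with S5P; what made it differ was not tested.

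**Figure D3:**
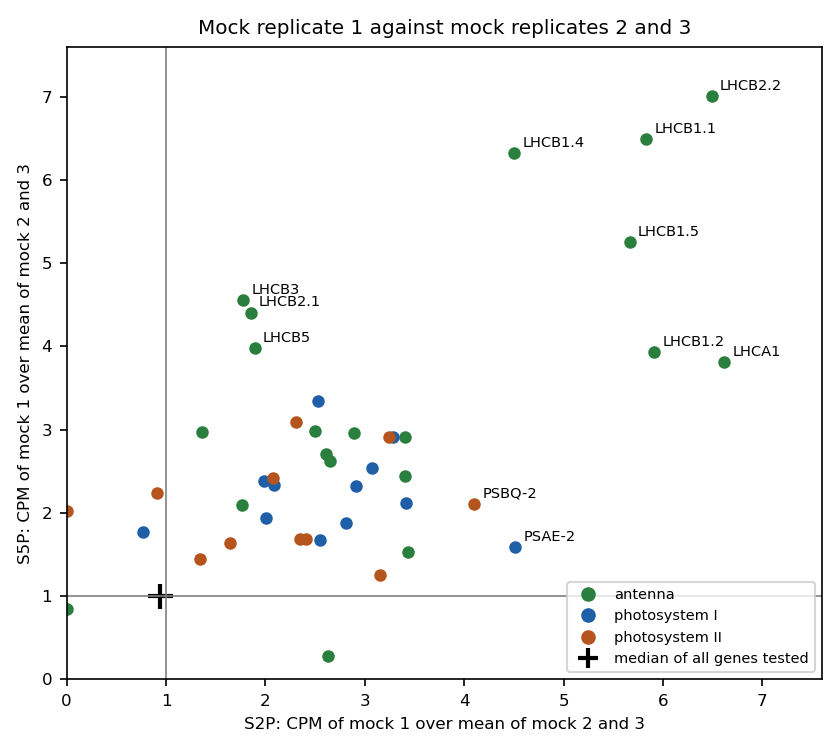
Ratio of CPM in mock 1 to the mean of mock 2 and mock 3 for each of the 43 genes, with S2P on the horizontal and S5P on the vertical axis, both linear; grey lines mark a ratio of 1. The black cross is the median of all genes tested (0.942 and 0.995), and LHCB2.2, LHCB1.1, LHCB1.4, LHCB1.5, LHCB1.2 and LHCA1 lie farthest from it; the points on the left edge are genes with no read in S2P mock 1.

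The first comparison of the study asked whether RNAPII occupancy changed when the TFIIS fusion was induced. No photosystem or antenna gene passed the test with either antibody over the whole gene, although most fitted changes were negative. With S2P, 0 of 37 genes tested were called by edgeR (0.016% of all 18798 genes were), 27 were negative, and the median log2 fold change was −0.27, against 0.035 over all genes. With S5P, 0 of 42 were called (0% of 21954 genes were), 35 were negative, and the median was −0.41, against −0.0083 over all genes. Before adjustment, p was under 0.05 with S2P for LHCB2.1 on the higher side (1 of 37, against 5.19% of all genes) and PSAK on the lower side (1 of 37, against 2.46%). With S5P it was so for LHCA6, on the lower side (1 of 42, against 3.19% of all genes), and for none of the 42 on the higher side (4.32%). Neither DESeq2 nor limma voom called any of them. The number of genes called in all depended on the libraries: it was 302 of 26076 without the library labelled S5P induced 2, and with S2P 40 of 25062 without induced 3, 78 of 27287 without the libraries under 250000 reads and 526 of 6849 without induced 2, and DESeq2 called 42 (S2P) and 92 (S5P). None of the 43 was among them in any of these fits. The fits on all 43 genes without the filter on low counts gave 29 negative with a median of −0.25 (S2P) and 36 negative with a median of −0.38 (S5P).

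The negative medians depended on mock 1. Without mock 1 they were 0.06 with S2P and 0.19 with S5P, so the direction turned. These fits tested all 43 genes, against 37 and 42 with all libraries. Without S2P induced 3 the S2P median was −0.071, and without the library labelled S5P induced 2 the S5P median was −0.34. Taking only the libraries over 1000000 reads (S2P induced 1 and 2 against S2P mock 3; S5P induced 1 and 3 against S5P mock 3), a choice made after seeing the data and without a test, the median log2 ratio over the 43 genes was −0.062 with S2P and −0.058 with S5P. In these libraries 34 of 43 genes lay within 1.5-fold with S2P and 31 of 43 with S5P, against 74.4% and 71.3% of all genes tested.

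Among the photosystem II antenna genes the fitted changes ran both ways with S2P, where 5 of 12 tested were negative (median 0.071), and mostly downward with S5P, where 11 of 14 were (median −0.50). LHCB2.1 (AT2G05100), a trimer gene, stood at 34.5, 48.4 and 19.0 CPM in S2P induced libraries, against 31.3, 15.6 and 18.1 CPM in S2P mock libraries. Its S2P log2 fold change was 1.06 ± 0.39 (SE; edgeR adjusted p = 0.543), the smallest p among the 37 genes, with overlapping groups. With S5P it stood at 60.6, 8.63 and 49.2 CPM in induced libraries, against 119, 27.6 and 26.6 CPM in mock libraries, a log2 fold change of −0.18 ± 0.60 (adjusted p = 0.956).

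LHCB1.3 was low in both induced groups without passing the test. It stood at 35.1, 41.5 and 4.75 CPM in S2P induced libraries, against 113, 20.8 and 65.4 CPM in S2P mock libraries (log2 fold change −0.87 ± 0.51, adjusted p = 0.692). It stood at 61.9, 0 and 52.9 CPM in S5P induced libraries, against 215, 46.9 and 112 CPM in S5P mock libraries (−1.35 ± 0.68, adjusted p = 0.671). The groups overlapped with both antibodies, because mock 2 lay low. LHCB1.5 and LHCB2.3 had S5P changes of −0.43 ± 0.63 and 0.15 ± 0.83. LHCB1.4 and LHCB2.2 had S5P log2 fold changes of −1.16 ± 0.72 and −0.99 ± 0.73, the largest SEs in this class after LHCB1.1, LHCB1.2 and LHCB2.3.

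All photosystem I antenna genes tested were negative without passing the test, 4 of 4 with S2P (median −0.46) and 5 of 5 with S5P (median −0.31). LHCA6 (AT1G19150), which in Arabidopsis helps to attach the chloroplast NDH complex to photosystem I, had the smallest S5P p of the 42 genes: it stood at 9.10, 0 and 4.47 CPM in S5P induced libraries, against 20.7, 13.8 and 13.3 CPM in S5P mock libraries (log2 fold change −1.15 ± 0.45, adjusted p = 0.641). The groups did not overlap, but the induced library at 0 had a limit of 25.9 CPM, and the mock values lay close to the medians of the silent genes in those libraries (11.9, 15.2 and 14.1 CPM). LHCA4 (AT3G47470), with LHCB2.3 and LHCB1.2 the antenna gene of the highest mean CPM, stood at 95.7, 94.2 and 4.75 CPM in S2P induced libraries, against 225, 62.5 and 69.8 CPM in S2P mock libraries, and at 129, 43.2 and 116 CPM in S5P induced libraries, against 213, 93.7 and 80.6 CPM in S5P mock libraries. Both pairs of groups overlapped, with changes of −0.50 ± 0.64 and −0.19 ± 0.53. LHCA5 (AT1G45474) and LHCA6 had too few reads to be tested with S2P, as had LHCB1.4, LHCB4.3, PSAE-2 and PSBTN.

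For photosystem I subunits 9 of 11 genes tested were negative with S2P (median −0.52) and 12 of 12 with S5P (median −0.37). PSAK (AT1G30380), a small membrane subunit on the antenna side, was among the lowest with both antibodies. It stood at 28.5, 23.3 and 9.50 CPM in S2P induced libraries, against 125, 26.0 and 47.3 CPM in S2P mock libraries (log2 fold change −1.19 ± 0.50, adjusted p = 0.617). It stood at 30.9, 0 and 28.3 CPM in S5P induced libraries, against 87.5, 44.1 and 38.4 CPM in S5P mock libraries (−0.998 ± 0.49, adjusted p = 0.667). The S5P groups did not overlap and the S2P groups did. PSAF (AT1G31330), which binds the electron donor plastocyanin, had the highest mean CPM of the class. It stood at 53.9, 75.2 and 9.50 CPM in S2P induced libraries, against 138, 46.9 and 90.3 CPM in S2P mock libraries, and at 83.1, 17.3 and 79.0 CPM in S5P induced libraries, against 159, 46.9 and 117 CPM in S5P mock libraries, with changes of −0.67 ± 0.49 and −0.60 ± 0.55. PSAL (AT4G12800), which with PSAH and PSAO forms the docking side for mobile antenna, had −0.77 ± 0.49 with S2P and −0.58 ± 0.46 with S5P, and PSAD-2, one of a pair of genes for the ferredoxin-docking subunit, had 0.0082 ± 0.41 and −0.081 ± 0.52, against −0.56 ± 0.54 and −0.21 ± 0.52 for PSAD-1.

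For photosystem II subunits 9 of 10 genes tested were negative with S2P (median −0.32) and 7 of 11 with S5P (median −0.41). PSBO2 (AT3G50820) and PSBQ-2 (AT4G05180), the second copies of subunits of the oxygen-evolving complex, were the lowest. PSBO2 stood at 23.6, 17.3 and 9.50 CPM in S2P induced libraries, against 87.5, 26.0 and 28.0 CPM in S2P mock libraries (log2 fold change −0.86 ± 0.49, adjusted p = 0.682), groups that did not overlap. With S5P it stood at 27.3, 8.63 and 16.4 CPM in induced libraries, against 66.8, 13.8 and 32.1 CPM in mock libraries (−0.80 ± 0.49, adjusted p = 0.703), groups that overlapped. The first copies moved less in the fit: PSBO1 had −0.27 ± 0.43 with S2P and −0.52 ± 0.58 with S5P, and PSBQ-1 had 0.31 ± 0.35 and 0.014 ± 0.52, against −0.97 ± 0.52 and −0.85 ± 0.43 for PSBQ-2; the difference between copies was not tested. PSBP-1 (AT1G06680), a further oxygen-evolving subunit and the photosystem II gene of the highest mean CPM, had −0.56 ± 0.48 and −0.24 ± 0.57. PSBW, a small subunit of the photosystem II core, had −0.37 ± 0.42 and −0.41 ± 0.50. On the positive side with S5P were PSBY with 0.19 ± 0.38 and PSBR with 0.14 ± 0.48, small membrane subunits, and PSBS, the sensor of energy-dependent quenching, had −0.048 ± 0.37 with S2P and 0.025 ± 0.36 with S5P.

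Counted over all genes tested, the induced libraries lay wholly below the mock libraries for 1 of 37 genes with S2P (PSBO2), where 9.31% of all genes did, and for 4 of 42 with S5P (LHCA6, LHCB4.3, PSAK and PSBQ-2), where 13.7% did. None lay wholly above, where 3.41% and 2.95% of all genes did. No gene was below with both antibodies, and both shares were under the background.

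**Figure D4:**
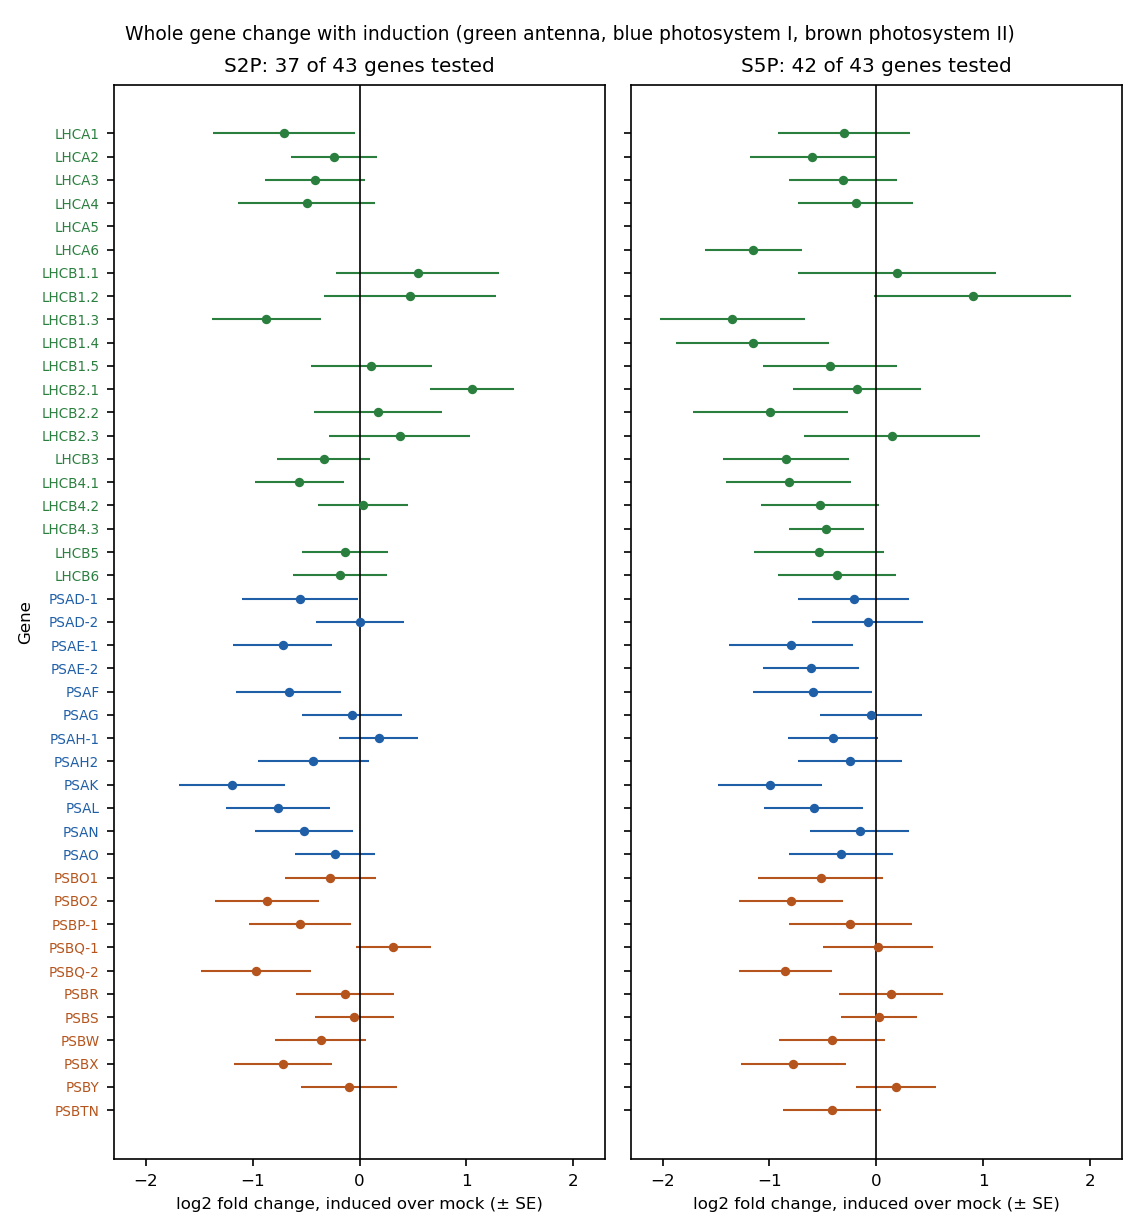
log2 fold change of induced over mock with its SE for each gene tested, S2P left and S5P right, from edgeR on 3 libraries per group. Most points lie left of 0 with both antibodies, none passed the adjusted threshold, and the widest error bars belong to LHCB1.1, LHCB1.2 and LHCB2.3.

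LHCB1.1, LHCB1.2 and LHCB2.3 (AT3G27690) had a library order that differed from that of most other antenna genes and was met by 5.82% of all genes. LHCB1.2 stood at 175, 29.4 and 233 CPM in S2P induced libraries, against 294, 57.3 and 42.2 CPM in S2P mock libraries. With S5P it stood at 105, 362 and 33.5 CPM in induced libraries, against 215, 77.2 and 32.1 CPM in mock libraries. LHCB2.3 stood at 251, 54.5 and 290 CPM in S2P induced libraries, against 306, 120 and 125 CPM in S2P mock libraries, and at 71.6, 207 and 20.1 CPM in S5P induced libraries, against 177, 60.6 and 57.9 CPM in S5P mock libraries. They were thus high in S2P induced 1 and 3, in the library labelled S5P induced 2 and in mock 1, so that the shallow libraries that were low in most other antenna genes were high in these.

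The reads of these genes lay mostly in 1 window each. LHCB1.1 and LHCB1.2 together had 88.9%, 59.4% and 98.6% of their window reads at the TSS in S2P induced libraries, against 85.5%, 90% and 62.0% in S2P mock libraries, and 78.7%, 91.5% and 56.5% in S5P induced libraries, against 77.9%, 69.2% and 53.2% in S5P mock libraries. LHCB2.3 was the reverse, with 2.63%, 7.81% and 1.64% of its reads at the TSS in S2P induced libraries and 0% to 20% in S2P mock libraries. In S2P induced 3, LHCB1.2 had 49 reads at the TSS and 0 over the gene body, while LHCB2.3 had 1 at the TSS and 60 over the gene body. LHCB1.3, the next gene to LHCB1.1 on chromosome 1, did not share the pattern: in the library labelled S5P induced 2 it had 0 reads, while LHCB1.1 and LHCB1.2 had 27 and 42.

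The same order of induced libraries, with S2P induced 1 and 3 at least 2 times S2P induced 2, and S5P induced 2 at least 2 times S5P induced 1 and 3, was counted after it had been seen. It was met by 1384 of 23793 genes (5.82%) and by 3 of the 43 (6.98%), a share near that background. These 3 are the genes in which the order had been seen, so their share is no test of it. Outside the 43 it was met by GSA1 and GUN4 of the chlorophyll synthesis genes and AP1 and VGD1 of the genes silent in seedlings. The 3 induced libraries in which these genes were high had 28.2%, 33.4% and 38.6% of reads outside genes, against 16.1% to 22.2% in the other 3 induced libraries; the part of this in the pattern was not tested. Over 22300 genes, the deviations of the library labelled S5P induced 2 from its group mean had correlations of 0.28 and 0.297 with those of S2P induced 1 and 3 and of −0.531 with S2P induced 2, where the 3 deviations of a group sum to 0 for each gene. LHCB1.1, LHCB1.2 and LHCB1.3 are near-identical neighbours, as are LHCB1.4 and LHCB1.5, and LHCB2.1 and LHCB2.2 are close copies, so how the counting divided reads among them is uncertain.

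**Figure D5:**
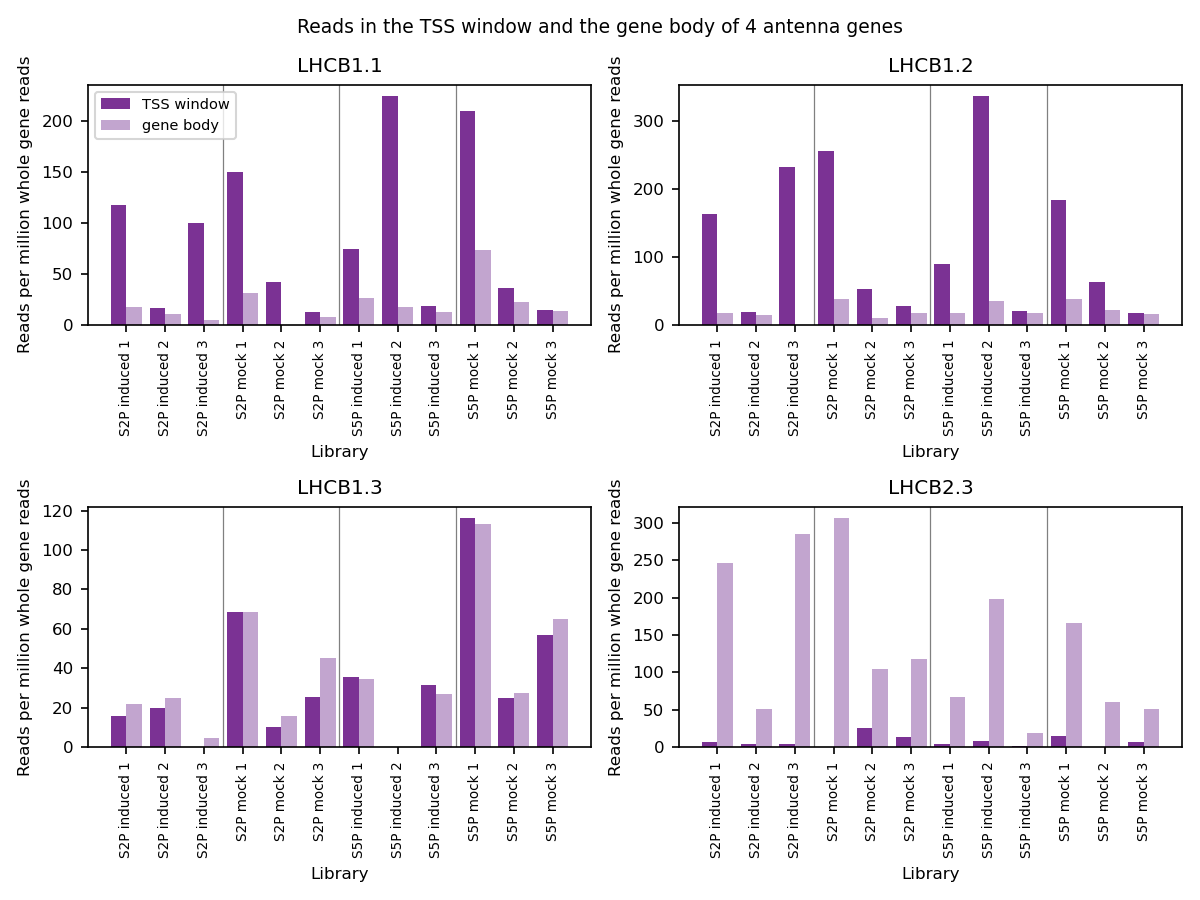
Reads in the TSS window (dark) and gene body (light) of LHCB1.1, LHCB1.2, LHCB1.3 and LHCB2.3, in CPM over whole gene reads, by library, with induced left of mock for each antibody. LHCB1.1 and LHCB1.2 reads lie mostly at the TSS, LHCB2.3 reads mostly in the gene body, and LHCB1.3 is near 0 in S2P induced 3 and the library labelled S5P induced 2, where the other 3 genes are high.

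Compared with all nuclear genes, photosystem and antenna genes carried much of their signal at the start of the gene. Over the 12 libraries a median of 38.2% of the window reads of the 43 genes lay in the TSS window, against 22.3% over 23878 nuclear genes with at least 100 reads over the windows. Electron transport genes shared this: they had 45.3%, 41.1% and 48.4% at the TSS in S2P induced libraries, against 37.9%, 34.1% and 31.2% in S2P mock libraries, and the 43 genes had 39.8%, 40.2% and 49.4% in S2P induced libraries, against 35.0%, 46.1% and 31.6% in S2P mock libraries. More than 50% lay there for 10 of the 43 genes (23.3%), against 9.44% of those nuclear genes. The highest were LHCB1.2 (80.3%) and the small photosystem II subunits PSBX (77.5%) and PSBTN (76.5%), and the lowest was LHCB2.3 (6.32%), followed by LHCA3 (15.1%) and LHCB4.1 (19.8%). These shares pool the reads of all libraries, and that of LHCB1.2 ranged from 53.5% to 100% in single libraries. Gene length enters this share and was not used here, and the difference from other genes was not tested.

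No gene's balance of TSS and gene body signal passed the test on induction. Photosystem I genes had 42.8%, 46.6% and 52.8% of window reads at the TSS in S2P induced libraries, against 37.6%, 52.5% and 35.1% in S2P mock libraries, and 47.8%, 58.3% and 50.7% in S5P induced libraries, against 46.8%, 44.0% and 41.5% in S5P mock libraries. The S5P groups did not overlap and the S2P groups did, but the library labelled S5P induced 2 held only 12 window reads of these genes. All nuclear genes moved the same way on average with both antibodies. They had 24.9%, 33.7% and 23.0% in S5P induced libraries, against 23.4%, 23.4% and 21.6% in S5P mock libraries. With S2P they had 26.0%, 23.3% and 27.1% in induced libraries, against 21.1%, 22.9% and 20.3% in mock libraries, groups that did not overlap. Photosystem II genes had 42.9% ± 5.46 in S2P induced and 40.9% ± 7.91 in S2P mock libraries, and 43.8% ± 1.75 in S5P induced and 41.1% ± 3.62 in S5P mock libraries; the 17 antenna genes other than LHCB1.1, LHCB1.2 and LHCB2.3 had 33.6% ± 3.25, 28.7% ± 6.69, 37.5% ± 3.37 and 34.2% ± 2.82 in those 4 groups (SD, n = 3 each).

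In the per-gene fit of TSS against gene body reads, edgeR called 0 of 17 genes with S2P and 0 of 33 with S5P (0% of 2600 and 0% of 5066 genes), none had an unadjusted p under 0.05, and limma voom called none. The medians were 0.015 and 0.092, against 0.045 and −0.076 over all genes, and limma voom gave −0.20 and −0.19. PSBQ-2 had the smallest p with both antibodies, with a shift away from the TSS of −0.67 ± 0.74 with S2P and −0.87 ± 0.51 with S5P (edgeR adjusted p = 0.998 and 0.999). LHCB1.2 had the most positive S2P value, 0.61 ± 1.02, and LHCB1.5 the most positive S5P value, 0.48 ± 0.47.

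Each window taken alone gave no call either. In the TSS window all genes tested were negative, 21 of 21 with S2P (median −0.62) and 35 of 35 with S5P (median −0.81), and edgeR called 0 of them (0% of 3215 and 0% of 5753 genes), with unadjusted p under 0.05 for 2 and 1 (3.61% and 4.35% of all genes). Without mock 1 the medians were −0.21 and −0.16. Without the filter on low counts the S2P median was 0.065 with 21 of 43 negative. In the gene body 27 of 30 were negative with S2P (median −0.32) and 33 of 38 with S5P (median −0.49), 0 were called (0.00626% and 0% of genes), and 1 and 2 had an unadjusted p under 0.05 (7.64% and 7.93% of all genes). PSAK had the smallest gene body p with both antibodies, −1.30 ± 0.45 with S2P and −1.08 ± 0.43 with S5P (edgeR adjusted p = 0.520 and 0.567). Without mock 1 the gene body medians were 0.089 and 0.0038. DESeq2 called none in either window.

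Between the antibodies, the only calls among the 43 genes were in mock plants, and only with the replicate number as a block. They fell on trimer genes, with relatively more S5P on LHCB1.3 and LHCB1.5 and more S2P on LHCB2.3. LHCB1.3 and LHCB1.5 have near-identical neighbours, so their division of reads is uncertain. Without pairing, edgeR called 0 of 38 genes tested (0% of 16388), LHCB2.1 and LHCB1.5 had an unadjusted p under 0.05 on the higher side (2 of 38, against 0.86% of all genes) and none on the lower side (1.41%). No gene was called by DESeq2 or by limma voom, and 31 were positive, with a median log2 ratio of S5P to S2P of 0.29 (antenna 0.61, photosystem I 0.29, photosystem II 0.13; all genes 0.015). Without S5P mock 1 the median was −0.16, with 24 of 34 genes negative, and without S2P mock 1 it was 0.63, with 2 of 41 negative. Each of these fits kept the high mock 1 library of the other antibody only. With both mock 1 libraries left out and the replicate number as a block, a choice made after seeing the data, the median was 0.33, with 7 of 43 negative. Same-numbered mock libraries of both antibodies deviated together, with correlations of 0.137 to 0.327, a pairing read from these same counts. With the replicate number as a block 3 genes were called, where 1.4% of all genes were.

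LHCB2.3 stood at 177, 60.6 and 57.9 CPM in S5P mock libraries, against 306, 120 and 125 CPM in S2P mock libraries, lower with S5P in 3 of 3 pairs (log2 ratio −0.97 ± 0.19, edgeR adjusted p = 0.000426 with the block). LHCB1.3 stood at 215, 46.9 and 112 CPM in S5P mock libraries, against 113, 20.8 and 65.4 CPM in S2P mock libraries, higher in 3 of 3 pairs (0.86 ± 0.21, adjusted p = 0.00698). LHCB1.5 stood at 161, 22.1 and 39.1 CPM in S5P mock libraries, against 75.0, 5.21 and 21.3 CPM in S2P mock libraries, also higher in 3 of 3 pairs (1.00 ± 0.26, adjusted p = 0.0155), with 1 read behind the lowest value.

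Leaving out a pair, a choice made after seeing the data, weakened these calls. Without the pair of replicate 1, LHCB2.3 was still called (adjusted p = 0.0162) while LHCB1.3 and LHCB1.5 were not (0.0543 and 0.207). Without the pair of replicate 2, LHCB2.3 and LHCB1.3 were called (0.0086 and 0.0462) and LHCB1.5 was not (0.0522). Without the pair of replicate 3, the deepest, none was (0.679 each), with log2 ratios of −0.86, 0.98 and 1.201.

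In induced plants, where the induced protein differs between the antibodies as well, the S5P to S2P ratio called 0 of 43 genes (0% of 23364) by edgeR, DESeq2 or limma voom, with a median of 0.14. No unadjusted p was under 0.05 among the 43, against 0.163% of all genes on the higher and 0.535% on the lower side. LHCB2.3 had −1.07 ± 0.99 and LHCB1.5 0.89 ± 0.45. The interaction of induction and antibody was likewise called for 0 of 43 (0% of 23793) by edgeR, DESeq2 and limma voom, with no unadjusted p under 0.05 among the 43. The smallest p was that of LHCB2.1, with a difference in log2 fold change, S5P minus S2P, of −1.2 ± 0.79. The median difference over the 43 genes was −0.084, and it was 0.44 without S5P mock 1 and −0.52 without S2P mock 1.

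No gene of the neighbouring steps (electron transport, antenna insertion and regulation, chlorophyll synthesis) was called on induction by edgeR with either antibody. An unadjusted p under 0.05 was found with S2P for 1, 2 and 1 genes of these lists, and with S5P for 2, 2 and 0, of 12 to 23 genes tested per list, where 7.65% and 7.51% of all genes had one. Among electron transport genes 9 of 12 were negative with S2P (median −0.11) and 12 of 14 with S5P (median −0.18). PETC, the Rieske protein of cytochrome b6f, stood at 21.8, 31.1 and 14.3 CPM in S2P induced libraries, against 119, 52.1 and 50.1 CPM in S2P mock libraries (log2 fold change −1.32 ± 0.41, adjusted p = 0.441). PGR5, which acts in cyclic electron flow, stood at 19.4, 17.3 and 14.2 CPM in S5P induced libraries, against 3.18, 11.03 and 6.26 CPM in S5P mock libraries (1.51 ± 0.44, adjusted p = 0.499). Both pairs of groups did not overlap, as was so for 9.31% of all genes on the lower side with S2P and 2.95% on the higher side with S5P. The PGR5 value in the library labelled S5P induced 2 rested on 2 reads. Its mock values lay under the medians of the silent genes in those libraries (11.9, 15.2 and 14.1 CPM).

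Of the genes for antenna insertion and regulation, 10 of 14 were negative with S2P (median −0.34) and 6 of 15 with S5P (median 0.18). NPQ1, the violaxanthin de-epoxidase of the xanthophyll cycle, lay below mock in all induced libraries with both antibodies. Of all genes 9.31% did so with S2P and 13.7% with S5P, and the share with both is not given here. NPQ1 stood at 21.2, 30.3 and 4.75 CPM in S2P induced libraries, against 56.3, 36.4 and 53.6 CPM in S2P mock libraries (−1.02 ± 0.40, adjusted p = 0.583). It stood at 29.1, 8.63 and 22.4 CPM in S5P induced libraries, against 76.4, 77.2 and 57.9 CPM in S5P mock libraries (−1.43 ± 0.38, adjusted p = 0.404), the lowest p of these lists. STN7, the kinase that phosphorylates the mobile antenna, had an S5P log2 fold change of 2.1 ± 0.76 (adjusted p = 0.608), carried by 423 CPM in the library labelled S5P induced 2, against 84.3 and 79.7 CPM in the other S5P induced libraries and 52.4 to 57.9 CPM in S5P mock libraries. CPSRP54, which helps deliver antenna proteins to the thylakoid, had −1.01 ± 0.35 with S2P (adjusted p = 0.511). Among chlorophyll synthesis genes 17 of 22 were negative with S2P (median −0.35) and 13 of 23 with S5P (median −0.25), and GSA1, an early enzyme of the path, had 1.54 ± 0.59 with S2P (edgeR adjusted p = 0.575), with the library order of LHCB1.1, LHCB1.2 and LHCB2.3.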

How the data were processed

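RNAPII occupancy was measured in 12 chromatin immunoprecipitation libraries. The deposited values are raw counts of reads per gene, TSS window and gene body from HTSeq, on reads trimmed with Trimmomatic and build TAIR10, per the submitters' processing notes; the sources used here name neither the aligner nor versions, strand or window bounds. Symbols came from a RefSeq gene table of TAIR10.1. The 5 counter lines that name no gene and the 279 organelle gene rows were left out of library sizes; reads outside genes are given as 16.1% to 38.6% of counted alignments. The labels do not say whether replicates were separate cultures, so p-values measure only the spread between these libraries.

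CPM was counts over nuclear gene reads. Genes passing filterByExpr (minimum count 10) were fitted with edgeR's quasi-likelihood test (edgeR 4.0.16, R 4.3.3, TMM) on the 3 libraries per group, with Benjamini-Hochberg adjustment over all genes at 0.05; SE is the log2 fold change over the root of F. TSS against gene body was fitted with library as a block. Alternatives were DESeq2 1.42.0, voom (limma 3.58.1), other scalings, filters, blocks and left-out libraries. The heat map uses a pseudocount of 2. Tables were made with Python 3.11.15, pandas 2.3.3 and numpy 2.4.6, and the fits were tested on simulated counts. Those counts had the same spread for every gene and large planted changes in well-counted genes. They do not measure how well smaller changes, or changes in genes of wider spread, are found here.

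Named genes are those with the 5 smallest p in each direction per antibody, the 3 highest and the lowest in mean CPM of each class, near-identical copies, and the smallest p of other tests and lists; LHCA1, LHCB4.3, PSAD-2, PSBS, PSBX, PSBTN and the TSS-share and mock 1 examples were chosen after their values were seen. Members and lists were chosen with earlier results of these data known, among them lower photosynthesis genes with S5P on induction and higher ones with S5P in mock plants. The labels give replicate numbers only, and pairing of same-numbered mock libraries was read from these same counts. The correlations of their deviations from group means were 0.137, 0.213 and 0.327 over 22300 genes, against −0.192 to −0.0431 for differently numbered mock libraries. The 3 deviations of a group sum to 0 for each gene, so these correlations are not independent. For same-numbered induced libraries the correlations were −0.212, −0.531 and −0.375.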

Additional observations from a re-analysis of the deposited data

How the results depend on the processing

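Of the values that answer a comparison, 233 alternatives left the call unchanged or moved the value by less than the replicate SD. Another 3 were classed as moved and 3 as stronger. The SD of library median log2 CPM was 0.873 with S2P and 1.1 with S5P. It exceeded the median induction changes, so a shift smaller than this SD says little about their direction. In mock plants the replicate block, which pairs S5P with S2P libraries, gave 3 genes past the threshold instead of 0, and 1, 2 and 0 with pairs 1, 2 and 3 left out. The block changed no other call on the 43 genes; the TSS to gene body fit has library as its block. Without LHCB1.1, LHCB1.2 and LHCB2.3, an alternative chosen after seeing the data, the antenna share was 0.0498% instead of 0.0929% in S2P induced libraries and 0.0612% instead of 0.0999% in S5P induced libraries. Taken as a median over genes, the photosystem I share of reads at the TSS in S2P induced libraries was 55.0% instead of 47.4%; the cause was not tested. Leaving out each library in turn gave median induction changes of −0.75 to 0.06 with S2P and −0.73 to 0.19 with S5P, and the values above 0 were those without mock 1. The count filter kept 16 to 43 of the genes in these fits with S2P and 39 to 43 with S5P, so the gene set changed with the library. The −0.75 rested on 16 genes and the 0.06 on 43. Without the libraries under 250000 reads, also chosen after seeing the data, the medians were 0.11 and −0.34. Scaling by total counts or upper quartiles moved the median of all genes to −0.16 and −0.092 with S2P and to −0.15 and −0.16 with S5P, and that of the 43 genes to −0.48 and −0.40 and to −0.56 and −0.57, with no call. Depth limits the induction tests: 3 reads are 25.9 CPM in the library labelled S5P induced 2, and SEs ran from 0.35 to 0.93.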
